A study of Mus musculus with 6 samples.

Results

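The genes described here encode the subunits of the constitutive proteasome, the barrel-shaped protease that destroys proteins tagged with ubiquitin. Members were all genes whose single symbol in the platform annotation starts with Psma, Psmb, Psmc or Psmd followed by a digit, other than the immunoproteasome genes Psmb8, Psmb9 and Psmb10. This gave 37 of 18194 genes, with 8 in the Psma family, 8 in Psmb, 7 in Psmc and 14 in Psmd. They had 76 probe sets, and the brightest on average over the 6 arrays stood for each gene. The products of 31 of the 37 are subunits of the constitutive particle. The other 6 are Psma8, a variant subunit of the testis, Psmb11, a variant of thymic epithelium, Psmc3ip, a partner of the meiotic recombinases that is no proteasome subunit, and Psmd5, Psmd9 and Psmd10, chaperones that help to assemble the regulatory particle. The 31 are called particle subunits below.

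The core particle is a stack of rings. Psma products form the outer rings that gate the entrance, and Psmb products form the inner rings, which hold the proteolytic sites. Psmc products are the ATPases of the regulatory particle that unfold substrates, and most Psmd products are its scaffold, its ubiquitin receptors and its deubiquitinase. Blood stem cells are known to depend on tight control of protein quality, in which this machine takes part.

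The cells were LSK cells, which are bone marrow cells without lineage markers but with Sca-1 and Kit, and which include the haematopoietic stem cells. Flow sorting took them from 6-month-old mice of a strain written CD57BL/6 in the labels. There were 3 WT samples and 3 Tet1 KO samples, with 1 Affymetrix array each, and Tet1 encodes an enzyme that oxidises 5-methylcytosine. The Tet1 KO allele and the cells in which it is deleted are not given in the sources used here, and nor is whether the 6 samples are 6 separate mice. The p-values then reflect only how much these samples varied, which may be technical. The comparison addresses which proteasome genes differ in LSK cells when Tet1 is missing.

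Values are log2 intensities, on which a difference of 1 is a doubling, and the number of arrays limits the precision. Array medians lay within 0.0694 of each other. All 3 Tet1 KO arrays were under all 3 WT arrays at each of 4 Tet1 probe sets, and the brightest read 5.80 ± 0.40 against 6.81 ± 0.07 (SD, n = 3 each). Where these probe sets lie relative to the deletion is not stated. Of the LSK markers, Kit read 9.94 in WT and 9.84 in Tet1 KO, and Cd34 read 10.82 and 10.76, while Ly6a, which encodes Sca-1, was not among the genes analysed here. Among markers of other cells, Cd3e, Cd3g and Ms4a1 read in both groups under 4.39, while Cd4, Cd8a, Cd79a and Cd79b read above it, with Cd8a at 5.28 in WT and 5.82 in Tet1 KO and Cd79b at 7.73 and 7.31. This value, a guide to background, is what the brightest of the 27 bacterial control probe sets read on average. Granulocyte and monocyte markers were higher in Tet1 KO for 4 of 5 genes, with a summed linear intensity of 557 to 1064 in WT and 794 to 1616 in Tet1 KO, and the 4 T cell markers were all higher, at 107 to 115 and 120 to 156. The 3 erythroid markers were all lower on average, at 169 to 204 and 93.1 to 260, and the 3 mast cell and basophil markers all higher, at 73.4 to 267 and 107 to 250. Of these, Alas2 and Ms4a2 read under 4.39 in both groups. On the Tet1 KO arrays the erythroid genes Klf1 and Epor read 5.92, 7.72 and 6.99, and 4.04, 5.12 and 5.32. Replicate 1 was the lowest for both, and another Tet1 KO array was above every WT array. The part of all these markers in the results below was not tested. On Tet1 KO replicate 2 the brightest bacterial control stood at 4.87, against 4.21 to 4.37 on the other arrays, and the differences of several members are given without it too.

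No proteasome gene passed correction for multiple testing, and most read somewhat lower in Tet1 KO. The difference (Tet1 KO minus WT) was negative for 26 of the 37 and positive for 11. Its median was -0.20, against 0.05 over all genes. The limma test with Benjamini-Hochberg adjustment called 0 members and 0 of all 18194 genes, or 0%, where 1311 genes had an unadjusted p under 0.05 and 1420 had one with an intensity trend. At an unadjusted p under 0.05, 6 members were lower, where 3.96% of all genes were, and 0 members were higher, where 3.25% of all genes were. The groups did not overlap, with Tet1 KO lower, for 10 members and for 6.89% of all genes. They did not overlap with Tet1 KO higher for 1 member, Psmc6, and for 10.3% of all genes. With RNA from sorted populations, fewer cells of a type and less RNA per cell cannot be told apart.

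Level had to be taken into account, because genes of the same brightness also read lower in Tet1 KO. All 37 members but Psmb11 read above the bacterial control level in at least 1 group, and the particle subunits ran from 7.75 to 11.12 in mean level. Among the 4241 other genes in this range, 67.3% were lower and the median difference was -0.12. Particle subunits gave almost the same share, with 21 of 31 or 67.7% lower and a median of -0.15. An unadjusted p under 0.05 with a lower value was found for 3 of the 31, or 9.68%, and for 5.94% of the 4241 genes. Groups were apart with Tet1 KO lower for 7 of the 31, or 22.6%, and for 12.2% of the 4241. For each member the 200 other genes nearest in mean level were also taken as level-matched controls. Of the 37 members 24 lay below the median of their own controls, and the median of member minus controls was -0.09. Among particle subunits 18 of 31 did, with a median of -0.06.

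**Figure D1:**
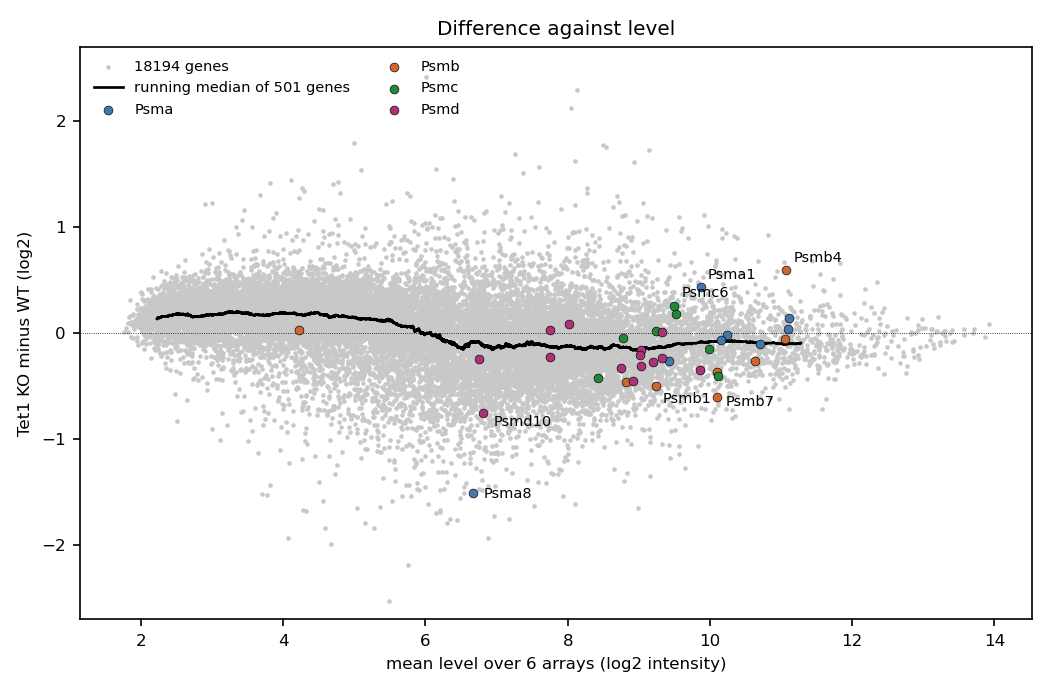
Tet1 KO minus WT difference (log2) against the mean level over 6 arrays (log2 intensity), with all 18194 genes in grey, their running median as a line and the 37 Psm genes coloured by family. The line lies above 0 for dim genes and below 0 in the range of 7.75 to 11.12 that holds the particle subunits, which scatter around it, while Psma8 and Psmd10 lie far below.

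The shift against level-matched controls was found on Tet1 KO replicates 1 and 3 and not on replicate 2. Relative to the WT mean, the median over the 37 members was -0.21 on Tet1 KO replicate 1, -0.17 on replicate 2 and -0.22 on replicate 3. For the controls the medians were -0.08, -0.22 and -0.04 on the same arrays. The members below their controls numbered 25, 14 and 26 on these 3 arrays. On the WT arrays the members' medians were -0.07, 0.04 and 0.02, and 25, 13 and 20 lay below their controls, so that WT replicate 1 had as many members below its controls as Tet1 KO replicate 1.

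**Figure D2:**
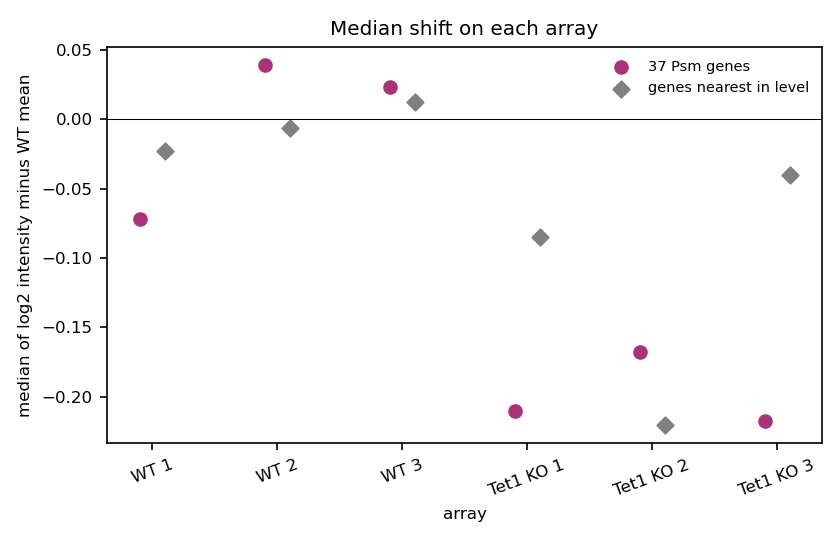
Median over the 37 Psm genes (circles) and over their level-matched controls (diamonds) of the log2 intensity minus the WT mean, for each of the 6 arrays. The members lie well below the controls on Tet1 KO replicates 1 and 3, at -0.21 and -0.22, and slightly above them on replicate 2, at -0.17 against -0.22.

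Among particle subunits the 3 at an unadjusted p under 0.05 were all genes of the inner ring. Psmb1, a structural subunit without a proteolytic site, read 9.47, 9.48 and 9.52 on the WT arrays and 9.01, 9.20 and 8.77 on the Tet1 KO arrays. The groups did not overlap, and the difference was -0.50 (SE 0.16), or 1.42-fold lower, with an unadjusted limma p of 0.0177 and an adjusted p of 0.642. Psmb5, which carries the chymotrypsin-like activity and is the main target of the proteasome inhibitor bortezomib, read 9.06, 9.15 and 8.93 in WT and 8.53, 8.79 and 8.42 in Tet1 KO. Here too every Tet1 KO array was below every WT array, with a difference of -0.46 (SE 0.16), an unadjusted limma p of 0.0256 and an adjusted p of 0.642. Psmb6, of the caspase-like activity, read 10.31, 10.28 and 10.26 in WT and 10.04, 9.91 and 9.80 in Tet1 KO. Its WT arrays lay within a narrow band, and the difference was -0.37 (SE 0.14), with an unadjusted limma p of 0.0350 and an adjusted p of 0.642. With quantile normalization the groups stayed apart for all 3 of these genes, and the unadjusted p of Psmb5 and Psmb6 was no longer under 0.05. After cyclic loess, which removes trends with level, the groups overlapped for Psmb5 but not for Psmb1 and Psmb6, and none of the 3 had an unadjusted p under 0.05. With the mean of its 3 probe sets Psmb1 differed by -0.064 and its groups overlapped, while Psmb5 and Psmb6 have 1 probe set each.

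Psmb7, of the trypsin-like activity, differed by -0.61 (SE 0.43), but much of this rested on 1 WT array. It read 9.98, 11.26 and 9.97 in WT and 9.76, 10.38 and 9.25 in Tet1 KO. Without WT replicate 2 the difference was -0.18, and without Tet1 KO replicate 2 it was -0.90. Psmb2, a structural subunit, differed by -0.26 (SE 0.18), from 10.62, 10.84 and 10.84 to 10.25, 10.77 and 10.48, with overlap between the groups, and by -0.14 without Tet1 KO replicate 1. Its difference was -0.40 without Tet1 KO replicate 2, with an unadjusted limma p of 0.0405. Psmb4, another structural subunit, was the member with the highest positive difference, at 0.59 (SE 0.50). It read 10.80, 10.66 and 10.86 in WT and 10.73, 12.64 and 10.74 in Tet1 KO, so that Tet1 KO replicate 2 stood alone, and without that array the difference was -0.040. Psmb3 had overlapping groups. Over the Psmb family 6 of 8 were lower, with a median of -0.32. Psmb11 read 4.07 to 4.33 on the WT arrays and 3.83 to 4.57 on the Tet1 KO arrays, so both groups had means dimmer than the bacterial controls.

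Of the genes named Psma, 5 of 8 were lower, and the testis variant Psma8 was the 1 with an unadjusted p under 0.05. Psma8 read 7.30, 7.98 and 6.99 in WT and 5.80, 6.28 and 5.65 in Tet1 KO, the lowest difference of all members at -1.51 (SE 0.30), or 2.85-fold lower. All 3 Tet1 KO arrays were below the WT arrays, and the unadjusted limma p was 0.00152, the smallest of the members, with an adjusted p of 0.642. In both groups it was brighter than the bacterial controls. The groups were apart by a small margin for Psma3, which read 10.73, 10.82 and 10.71 in WT and 10.67, 10.60 and 10.67 in Tet1 KO, and differed by -0.11 (SE 0.13). Psma4 differed by -0.26 (SE 0.17), from 9.49, 9.57 and 9.62 to 9.35, 9.02 and 9.52, and by -0.12 without Tet1 KO replicate 2. These are both structural subunits of the gate ring. Psma1 differed by 0.43 (SE 0.54), and this rested on 1 array. It read 9.61, 9.63 and 9.73 in WT and 11.46, 9.31 and 9.48 in Tet1 KO, and without Tet1 KO replicate 1 the difference was -0.26. Psma7 read 10.98, 11.02 and 11.13 in WT and 10.76, 12.32 and 10.48 in Tet1 KO, and differed by 0.14 (SE 0.46), or by -0.42 without Tet1 KO replicate 2. For the other genes of the outer rings, Psma2, Psma5 and Psma6, the groups overlapped. Without Tet1 KO replicate 2, Psma5 moved from -0.07 to -0.21 and Psma6 from 0.04 to 0.23. The median of the Psma family was -0.05.

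**Figure D3:**
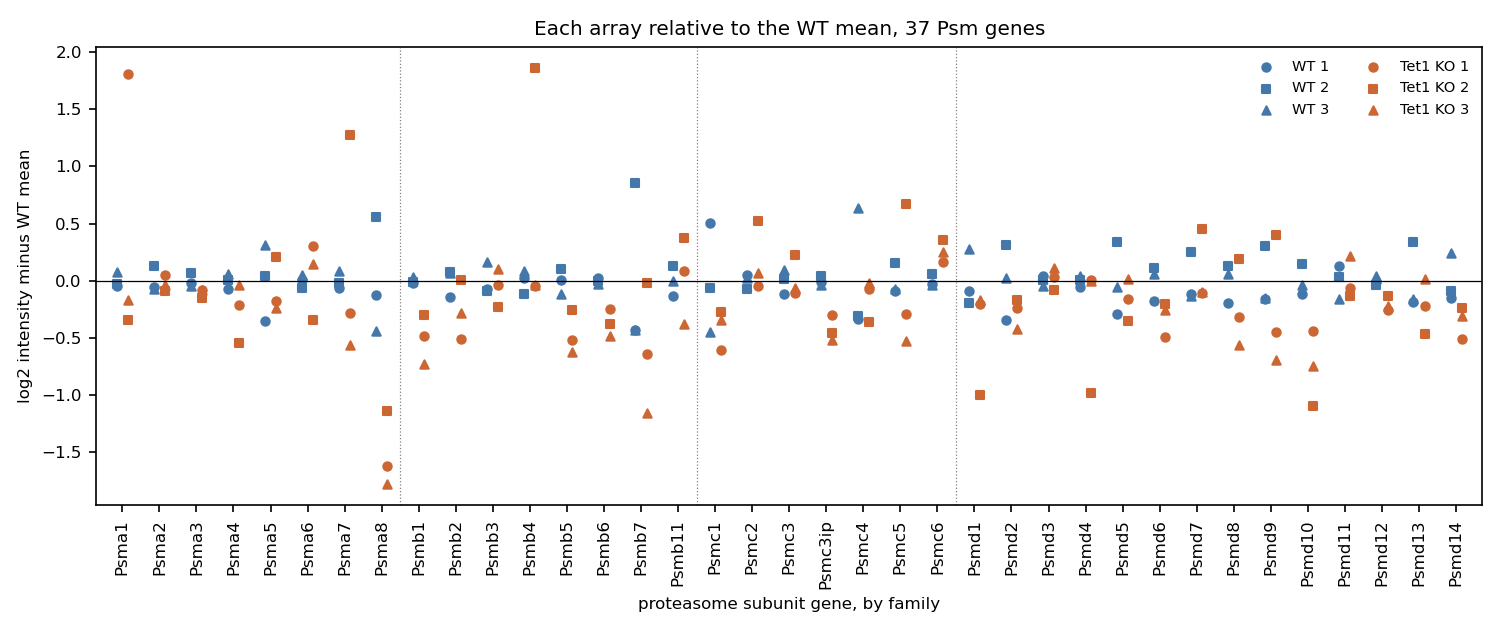
Log2 intensity minus the WT mean for each of the 37 Psm genes, with WT arrays in blue and Tet1 KO arrays in orange and the replicate number shown by the symbol. Psma8 and Psmd10 separate clearly, Psmb1, Psmb5 and Psmb6 by less, and Psma1, Psma7 and Psmb4 each have 1 Tet1 KO array far above the other 5.

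The ATPase genes went both ways. Psmc6 was the 1 member with every Tet1 KO array above every WT array, at 9.34, 9.43 and 9.34 for WT and 9.53, 9.73 and 9.62 for Tet1 KO, a difference of 0.26 (SE 0.14) with an unadjusted limma p of 0.107 and an adjusted p of 0.642. Another Psmc6 probe set read 7.28, 7.48 and 7.43 in WT and 8.13, 6.27 and 7.97 in Tet1 KO, and differed by 0.06. On it Tet1 KO replicate 2 was the lowest of all arrays and the other Tet1 KO arrays the highest. The mean of the gene's probe sets differed by 0.15. Psmc2 differed by 0.18 (SE 0.19) and by 0.01 without Tet1 KO replicate 2. Psmc1 differed by -0.41 (SE 0.26), from 10.83, 10.25 and 9.87 to 9.71, 10.04 and 9.98, and by -0.15 without WT replicate 1. Psmc5 read 8.72, 8.96 and 8.74 in WT and 8.52, 9.48 and 8.28 in Tet1 KO, so that Tet1 KO replicate 2 was the highest of all arrays and the other Tet1 KO arrays the lowest. Its difference was -0.05 (SE 0.31), and -0.41 without that array. Psmc3 and Psmc4 had overlapping groups. Psmc3ip, no ATPase and no part of the particle, read 8.63, 8.69 and 8.60 in WT and 8.34, 8.18 and 8.12 in Tet1 KO. Its difference was -0.42 (SE 0.14) without overlap, with an unadjusted limma p of 0.0204 and an adjusted p of 0.642, and -0.22 with overlap for the mean of its probe sets.

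In the Psmd family 11 of 14 members were lower, with a median of -0.24. The chaperone gene Psmd10, also called gankyrin, read 7.08, 7.34 and 7.16 in WT and 6.76, 6.10 and 6.44 in Tet1 KO. The groups did not overlap, and the difference was -0.76 (SE 0.20), or 1.69-fold lower, with an unadjusted limma p of 0.00778 and an adjusted p of 0.642. The other chaperones of this family gave -0.16 (SE 0.21) for Psmd5 and -0.25 (SE 0.31) for Psmd9, both with overlap. Psmd5 was at 0.0079 without WT replicate 2, and Psmd9 at -0.57 without Tet1 KO replicate 2 and at -0.023 without Tet1 KO replicate 3. Psmd14, the deubiquitinase that removes ubiquitin chains before degradation, read 9.88, 9.94 and 10.28 in WT and 9.52, 9.80 and 9.73 in Tet1 KO, and differed by -0.35 (SE 0.17) without overlap, or by -0.23 without WT replicate 3. Psmd6 and Psmd12, structural subunits of the same lid, differed by -0.31 (SE 0.16) and -0.20 (SE 0.13), and neither had overlapping groups. Cyclic loess brought Psmd14 to -0.23, Psmd6 to -0.19 and Psmd12 to -0.076. The groups then overlapped for each of these genes, as they also did with quantile normalization. For Psmd12 the 3 WT arrays lay between 9.08 and 9.16 and the Tet1 KO arrays between 8.86 and 8.98.

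For Psmd1 and the ubiquitin receptor gene Psmd4, Tet1 KO replicate 2 read lower than the other 5 arrays. Psmd4 read 8.86, 8.92 and 8.95 in WT and 8.91, 7.93 and 8.91 in Tet1 KO. The difference of -0.33 (SE 0.28) became 0.00022 without that array. Psmd1, a scaffold of the base, read 9.06, 8.96 and 9.43 in WT and 8.95, 8.15 and 8.98 in Tet1 KO, and its difference of -0.45 (SE 0.27) became -0.18 without it. The other members of the regulatory particle, Psmd2, Psmd3, Psmd7, Psmd8, Psmd11 and Psmd13, had overlapping groups, and their differences lay between -0.28 and 0.08. Without Tet1 KO replicate 2, Psmd8 moved from -0.23 to -0.44, with an unadjusted limma p of 0.0388 and no overlap, and Psmd7 from 0.08 to -0.10.

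Leaving out Tet1 KO replicate 2 raised the number of lower members. At an unadjusted limma p under 0.05 there were then 11 of 37, or 29.7%, where 4.65% of all genes and 7.31% of the 4241 genes in the same range of level were lower. These were Psma7, Psma8, Psmb1, Psmb2, Psmb5, Psmb6, Psmc3ip, Psmc5, Psmd8, Psmd9 and Psmd10. Of the particle subunits 7 of 31, or 22.6%, were among them. With 3 WT against 2 Tet1 KO arrays the groups were apart with Tet1 KO lower for 16 members, or 43.2%, and for 12.5% of all genes and 20% of genes in the same range. No adjusted p of a member was under 0.575 in this fit. The count of 6 fell to 3 without WT replicate 1, and to 2 without WT replicate 2 and without Tet1 KO replicate 3. These are 8.11%, 5.41% and 5.41% of the members, against 2.39%, 2.26% and 4.93% of all genes in the same fits. Of the 31 particle subunits 1, 0 and 0 were lower at such a p, against 3.23%, 2.95% and 7.26% of genes in the same range. The count of members thus moved both ways with single arrays. Psma8 and Psmd10 were in the count whichever of the 6 arrays was left out. With cyclic loess, 2 members, or 5.41%, were at an unadjusted p under 0.05 and lower, again Psma8 and Psmd10, against 3.47% of all genes. Of the 31 particle subunits 0 were, against 3.09% of the genes in the same range. Loess also put 1 member higher at such a p, Psmc6 at 0.38 with an unadjusted limma p of 0.0362. Loess left 17 of the 31, or 54.8%, lower, against 49.9% of those genes.

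**Figure D4:**
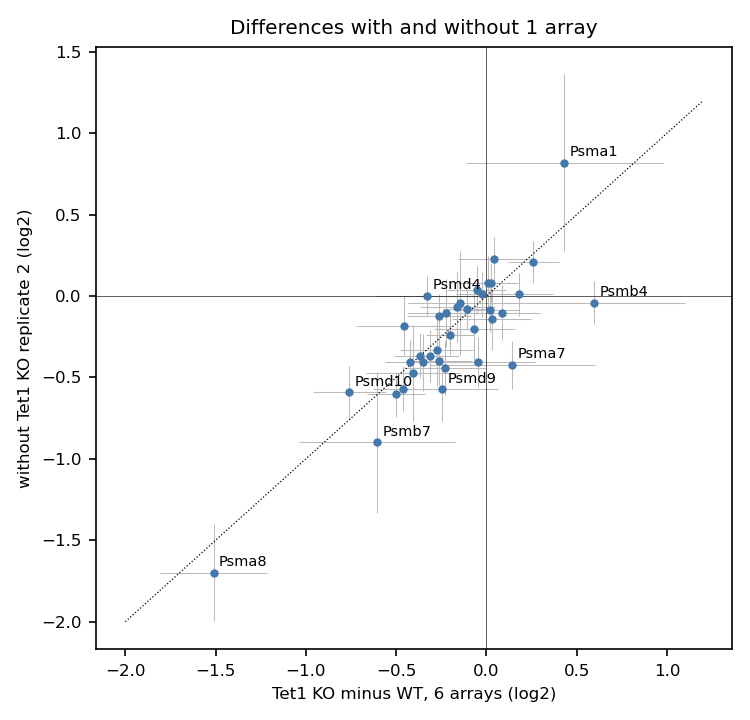
Tet1 KO minus WT difference of the 37 Psm genes (log2, bars are standard errors of the limma fit) with all 6 arrays (x axis) and without Tet1 KO replicate 2 (y axis), with the dotted line marking equal values. Psma7 moved from 0.14 to -0.42 and Psmb4 from 0.59 to -0.04, while Psma8 and Psmd10 stayed far below 0.

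Single-array jumps had a similar share among the members and among other genes. An array further than 1 from the median of the 6 arrays was found for 5 members, or 13.5%, against 14.3% of all genes and 16% of the other genes that read at least as bright as the dimmest particle subunit. For Psma7 and Psmb4, chosen for description after their values were seen, the jump on Tet1 KO replicate 2 was present in both probe sets of the gene, at 1.32 and 1.55 for Psma7 and at 1.87 and 1.88 for Psmb4. For Psma1 the jump of 1.85 on Tet1 KO replicate 1 was in the brightest probe set, and another that read above the bacterial control level stood 0.38 above its median there. Psmb7 and Psma8, each with 1 probe set, had the jump on WT replicate 2, at 1.28 and 1.34.

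The further probe sets of the members went both ways. Of 39 further probe sets 30 read above the bacterial control level in at least 1 group, and 13 of these were lower and 17 higher in Tet1 KO. Of the 10 members without overlap on the lower side, Psma8, Psmb5, Psmb6, Psmd10, Psmd12 and Psmd14 had 1 probe set. The other 4 had further ones, all dimmer. Those of Psmb1 gave 0.24 and 0.07, that of Psmc3ip gave -0.01 and that of Psmd6 gave 0.0015. The further Psma3 probe set went the opposite way, from 5.90, 5.55 and 5.84 in WT to 7.29, 6.41 and 7.80 in Tet1 KO. It differed by 1.41 (SE 0.35) without overlap, with an unadjusted limma p of 0.0055 in a fit of every probe set. With the mean of its probe sets Psma3 was at 0.65, with an unadjusted limma p of 0.0139, the 1 member higher at such a p in that setting. By the naming of Affymetrix probe sets, those chosen for Psma6, Psmb4 and Psmc2 may hold probes that match other sequences, and those chosen for Psmc3ip and Psmd11 may match several transcripts, so their values are less certain.

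Other genes of the pathway mostly read lower as well. Of 49 genes in 7 lists, 39 were measured, of which 3 are members, and the other 10 were not analysed here. Among the 36 that are no members, the difference was negative for 30 and positive for 6, and its median was -0.19. An unadjusted p under 0.05 with a lower value was found for 4 of the 36, or 11.1%, where 3.96% of all genes were, and limma called 0 after adjustment. Brightness counts here too, and 24 of the 36 lay in the range of level of the particle subunits. Of these 24 genes 22 or 91.7% were lower, with a median of -0.19 and 3 or 12.5% at an unadjusted p under 0.05. The 4241 genes of that range, given above, had 67.3% lower, a median of -0.12 and 5.94%. Psme1, part of the activator that opens the core particle after interferon, read 10.93, 11.17 and 10.91 in WT and 10.41, 10.54 and 10.26 in Tet1 KO, and differed by -0.60 (SE 0.16). Psmg4, an assembly chaperone of the core particle, read 7.89, 8.40 and 8.01 in WT and 7.62, 6.67 and 6.85 in Tet1 KO, and differed by -1.06 (SE 0.28). Vcp, the ATPase that extracts ubiquitin-tagged proteins, gave very even values of 10.87, 10.86 and 10.84 in WT and 10.55, 10.48 and 10.50 in Tet1 KO, and differed by -0.35 (SE 0.13). The groups did not overlap for any of the 3, with unadjusted limma p-values of 0.00684, 0.00775 and 0.0335 and an adjusted p of 0.642 each. With probe sets averaged, Psmg4 was at -0.58 and Vcp at -0.69, with unadjusted limma p-values of 0.0304 and 0.0547, the latter no longer under 0.05.

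The immunoproteasome subunits replace Psmb5, Psmb6 and Psmb7 in cells exposed to interferon and in many blood cells. Psmb10, the counterpart of Psmb7, differed by -0.44 (SE 0.18), with an unadjusted limma p of 0.0442, an adjusted p of 0.642 and no overlap. Psmb8 and Psmb9, the counterparts of Psmb5 and Psmb6, differed by -0.10 (SE 0.41) and -0.04 (SE 0.16), with overlap. Of the activator list, Psme4 gave 0.32 (SE 0.17). The ubiquitin-activating enzyme gene Uba6 gave -0.41 (SE 0.20), without overlap, and -0.26 without Tet1 KO replicate 3. In the list of genes for the transcription of subunit genes, which holds Nfe2l1, 4 of 7 were lower and 3 were higher, and the median was -0.0032. Its smallest p-values belonged to Keap1, whose product marks Nfe2l2 for degradation, at -0.32 (SE 0.19), and to Mafg, which encodes a binding partner of these factors, at 0.12 (SE 0.18). Mafg was at 0.017 without Tet1 KO replicate 3. Among particle-associated factors, 8 of 9 were lower, with Akirin2 at -0.31 (SE 0.22) and Txnl1 at -0.24 (SE 0.22), of which the first was -0.11 and the second -0.024 without Tet1 KO replicate 2. The 7 shuttle and segregase genes were all lower, with Ubqln2 at -0.21 (SE 0.19), or -0.038 without that array. With the mean of probe sets Ubqln2 was at -0.53, with an unadjusted limma p of 0.0244, Akirin2 at -0.077 and Txnl1 at -0.016.

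Promoter sequences were read because proteasome genes are known to be raised together by Nfe2l1, a factor that binds antioxidant response elements. RefSeq promoter windows of build GRCm38.p6 were found for 30 of the 37 members, and the 250 bases before each start were searched on both strands. Some starts lie inside the RefSeq gene. Of the 250 bases, 0 lie before the gene for Psma3, for Psmd2 and for a further window each of Psma6 and Psmc2. The number is 172 for Psma4, 217 for Psmb6, 247 for Psmd5 and 249 for Psmc6. Matches inside the gene were counted too. The element core TGACNNNGC was found in 5 of 30 members, Psmb5, Psmb6, Psmc6, Psmd9 and Psmd12, and in 11.5% of all 27025 genes with a window. The box CCAAT was found in 13 of 30, and in 37.5% of all genes. The GC box GGGCGG was found in 17 of 30, and in 35.4% of all genes. A match is a description of letters and no binding site, and 1 pair of matches of different motifs overlapped in the members' windows. Of the 5 genes with the core, Psmb5, Psmb6 and Psmd12 were lower on every Tet1 KO array, Psmc6 was higher on every one, and Psmd9 had overlapping groups, so the letters were found beside differences of both signs. In Psmb6 the core reads TGACGGAGC, begins 9 bases before the start of its window's transcript and lies inside the RefSeq gene. The sequences of Psmb5 (chr14:54617996-54618245, minus strand), Psmd12 (chr11:107479278-107479527, plus strand) and Psmc6 (chr14:45329574-45329822, plus strand) are shown, because these members separated the groups in opposite directions, with the element core in capitals on the strand of the gene.
Psmb5: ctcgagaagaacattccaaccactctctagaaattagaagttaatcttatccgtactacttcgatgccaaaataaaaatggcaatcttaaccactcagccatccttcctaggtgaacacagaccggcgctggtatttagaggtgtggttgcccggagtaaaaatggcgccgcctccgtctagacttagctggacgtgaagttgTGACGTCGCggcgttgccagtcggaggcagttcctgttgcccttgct
Psmd12: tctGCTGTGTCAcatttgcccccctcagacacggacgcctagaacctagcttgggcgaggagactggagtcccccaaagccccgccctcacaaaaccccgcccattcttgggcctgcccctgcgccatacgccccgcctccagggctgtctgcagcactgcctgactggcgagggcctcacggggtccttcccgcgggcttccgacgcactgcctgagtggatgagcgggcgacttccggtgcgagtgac
Psmc6: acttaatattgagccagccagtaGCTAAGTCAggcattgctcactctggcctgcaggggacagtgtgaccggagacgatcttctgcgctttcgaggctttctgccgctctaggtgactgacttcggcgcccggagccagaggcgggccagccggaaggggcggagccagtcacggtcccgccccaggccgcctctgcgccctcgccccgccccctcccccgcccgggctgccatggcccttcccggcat
In Psmb5 the core lies 47 bases before the start and reads along the gene, and in Psmd12 and Psmc6 it lies 247 and 227 bases before it on the opposite strand.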

How the data were processed

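The data were log2 intensities of 6 Affymetrix arrays, 1 value per probe set for 45101 probe sets, as deposited by the authors. Their range of 1.5 to 14.6 marks them as log2, and background correction, normalization and summarization are not given in the sources used here. Per the labels, cDNA was made from 125 ng of RNA with kits of the whole-transcript kind, whereas probe sets are named as on a 3′ array. This mismatch was not resolved, and how it bears on the intensities is not known. Array medians differed by less than 0.3, so values were used as deposited.

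By the platform annotation 34958 probe sets had 1 gene symbol, 932 had several and 9211 were unnamed here. Only the first were used, and the brightest stood for each of 18194 genes. No gene was filtered out. The fit across all genes used lmFit and eBayes of limma 3.58.1 (R 4.3.3), genotype alone, two-sided, with Benjamini-Hochberg adjustment at 0.05. Standard errors (SE) are moderated. An exact permutation test over 6 arrays has a smallest p of 0.1. The fit was tested on simulated data. Members, lists and tests were chosen with earlier results of these data known. Named were the 4 members of smallest p in each of the 4 families, Psmb5, Psmb6, Psmb7, Psmd4, Psmd14, members outside the particle, members without overlap, and the 2 genes of smallest p in each pathway list with Psmb8, Psmb9 and Psmb10. Psma7, Psmb4 and Psmc5 were named after their values were seen. Level-matched controls were the 200 non-members nearest in mean level. Alternatives were quantile normalization, a median shift, cyclic loess, filters on level, the mean of probe sets, every probe set tested, intensity trends, array weights, a replicate block and fits without each array. Figures used matplotlib 3.10.9.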

Additional observations from a re-analysis of the deposited data

How the results depend on the processing

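The numbers of genes and of members called stayed at 0 in every alternative run, with the lowest adjusted p of any gene between 0.0903, without Tet1 KO replicate 3, and 0.886. The median over the 37 members, -0.20 as reported, was -0.12 with quantile normalization, -0.10 with cyclic loess, -0.087 with averaged probe sets, -0.15 for particle subunits alone and between -0.30 and -0.10 when an array was left out. The count of 6 members lower at an unadjusted p under 0.05 was 2 with cyclic loess and 3 for particle subunits alone. It was 2 to 11 when an array was left out. Of all genes, 3.47% were lower at such a p with cyclic loess and 2.26% to 5.86% when an array was left out. The count of 10 members without overlap was 6 with quantile normalization, 5 with cyclic loess and 6 with the mean of probe sets. It was 11 to 16 when an array was left out, where fewer arrays make separation easier. The shares of all genes were 5.69%, 6.6%, 7.21% and 9.61% to 13.1%, in the same order. For particle subunits they were 9.68% with quantile normalization, 6.45% with cyclic loess and 12.9% with the mean of probe sets. Genes in the same range of level gave 7.92%, 6.06% and 13.2%. The cause of these shifts was not tested.

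Of 623 values of single genes under alternatives, for 39 genes, 595 kept their direction and 28 reversed. Cyclic loess gave -0.13 for Psmb11, 0.063 for Psmb9, 0.0016 for Psmb8 and 0.082 for Psmc5. Quantile normalization gave -0.033 for Psmb11 and 0.038 for Psmc5. The mean of probe sets gave 0.65 for Psma3, 0.014 for Psmd4, 0.018 for Psmb8 and -0.082 for Mafg. Array weights gave -0.071 for Psmb11, 0.047 for Psmb8 and -0.22 for Psma7, with a weight of 0.236 for Tet1 KO replicate 2 against 0.898 to 1.88 for the others. When an array was left out the values ran from -0.26 to 0.82 for Psma1, from -0.42 to 0.50 for Psma7, from -0.040 to 0.91 for Psmb4, from -0.14 to 0.23 for Psmb11, from -0.41 to 0.19 for Psmc5, from -0.49 to 0.00022 for Psmd4, from -0.31 to 0.0079 for Psmd5, from -0.13 to 0.073 for Psmb9 and from -0.56 to 0.24 for Psmb8.

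With the replicate number as a block, 992 genes had an unadjusted p under 0.05 in either direction. Of the members 5, or 13.5%, were lower at such a p. For all genes the share was 3.57%, and for genes in the same range of level 4.6%. The 5 were Psma8, Psmb1, Psmb5, Psmb7 and Psmd10, so that Psmb7 entered the count and Psmb6 and Psmc3ip left it. For Psmb7 the unadjusted limma p was then 0.0329 and the adjusted p 0.717. Over all genes, which are not independent, residuals of same-numbered arrays correlated at 0.01, -0.01 and 0.03. Of the 6 arrays 3 correlated best with their own number. For single members the block changed the SE both ways. It fell from 0.43 to 0.21 for Psmb7 and from 0.30 to 0.18 for Psma8. It rose from 0.16 to 0.19 for Psmb1 and from 0.20 to 0.24 for Psmd10.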
